A study of Oryza sativa with 12 samples.

Results

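The 8 genes described here are core components of the rice circadian clock, measured in seedling roots. They were chosen by gene identity. No measured value enters that rule, but the choice was made with earlier results of these data known. OsLHY (Os08g0157600), OsPRR73 (Os03g0284100), OsPRR37 (Os07g0695100), OsPRR95 (Os09g0532400), OsPRR59 (Os11g0157600), OsPRR1 (Os02g0618200), OsGI (Os01g0182600) and OsELF3 (Os06g0142600) lie on chromosomes 8, 3, 7, 9, 11, 2, 1 and 6 in that order. They are 8 of 26611 genes listed at either NaCl level and 8 of the 24922 genes listed at both, and all 8 were tested.

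The plant clock is a network of transcriptional repressors that act on each other in sequence through the day. In Arabidopsis, the morning MYB factor LHY and the day- and evening-phased pseudo-response regulators (PRRs) repress each other's genes, GIGANTEA (GI) adjusts the stability of clock proteins and relays day length to flowering, and ELF3 belongs to an evening repressor complex. Transcripts of such genes normally cycle over the day, so a level taken at a single time is 1 point of a cycle.

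RNA was sequenced from roots of 4 groups with 3 biological replicates, 1 library each. The groups were OE1 at 150 mM NaCl, TNG67 at 150 mM NaCl, OE1 at 0 mM NaCl and TNG67 at 0 mM NaCl. TNG67 (Tainung 67) is a japonica rice cultivar and the wild type, and OE1 is a single transgenic line in that background in which the constitutive 35S promoter drives OsERF106MZ, a gene for an ERF transcription factor. Seedlings aged 7 days were kept for 24 h at the stated NaCl level, under 16 h of light at 28 °C and 8 h of dark at 24 °C, and each library pooled several seedlings. All libraries have 1 sampling time after transfer, and the hour of the day at which roots were taken is not given in the sources used here.

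The libraries held 16326661 to 22426883 counted reads (median 17756894), and the 8 clock genes had 226 to 10805 reads in a library. Values below are normalized counts, that is, reads divided by a scaling factor for the library. They depend on gene length, so they are compared between groups for 1 gene and not between genes. OsERF106MZ averaged 9934 ± 531 in OE1 and 723 ± 54.6 in TNG67 with 150 mM NaCl, and 9840 ± 615 in OE1 and 876 ± 112 in TNG67 without NaCl (SD, n = 3 each), in the direction of the labels. The summed level of 5 root marker genes was 23223 to 27593, 15293 to 17889, 70912 to 71674 and 61254 to 72665 in OE1 at 150 mM, TNG67 at 150 mM, OE1 at 0 mM and TNG67 at 0 mM NaCl. Over 4 shoot photosynthesis markers the summed level was 141 to 260, 101 to 157, 2058 to 3301 and 4882 to 6874 in the same order. One of those 4, a Rubisco small subunit gene of a multigene family, was at 0 in 1 TNG67 library at 150 mM NaCl. Both marker lists moved in the comparisons in which clock genes are described below. With salt, all 4 shoot markers fell, 4 of 5 root markers fell and 1 rose, in each line. Between OE1 and TNG67 at 150 mM NaCl, 2 of 4 shoot markers were higher in OE1, and 3 of 5 root markers were higher and 1 was lower, with the root gene RCc3 higher by 1.64 (limma adjusted p = 1.49e-07). Without salt, 2 shoot markers and 1 root marker were lower in OE1. The part of either marker list in the clock gene differences was not tested. In a bulk root sample, fewer cells of a type and less RNA per cell cannot be told apart.

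Line and salt were each associated with small shifts in the clock genes, and no clock gene changed by more than 1 on the log2 scale in any of the 4 comparisons. Without salt, OE1 had higher levels of OsPRR1, OsPRR95, OsELF3 and OsPRR73 and a lower level of OsGI than TNG67. At 150 mM NaCl, only OsPRR1 and OsPRR95 passed the test among the 8, both higher in OE1. Salt raised OsPRR1, OsPRR95 and OsPRR59 in each line, and it lowered OsLHY and OsGI in TNG67. In OE1 neither OsLHY nor OsGI passed, and the difference between the lines passed for OsGI alone, close to the threshold. The test was limma on log2(normalized count + 1) with Benjamini-Hochberg adjustment over all 24922 genes, and a gene is said to rise or fall where its adjusted p is below 0.05. Fold changes are given on that log2 scale.

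These counts were read against all genes tested. In OE1 against TNG67 at 0 mM NaCl, 5 of 8 clock genes passed (4 higher, 1 lower), where 22% of all genes did (9.55% higher, 12.5% lower). At 150 mM NaCl, 2 of 8 passed, both higher, beside 25.8% of all genes (11.2% higher, 14.6% lower). Salt changed 5 of 8 in TNG67 (3 higher, 2 lower) beside 54.5% of all genes (27.4% higher, 27.2% lower). In OE1 it changed 3 of 8, all higher, beside 38.8% (19.6% higher, 19.2% lower), so neither salt count lies far from its background. The 3 libraries of each group did not overlap for 4 of 8 clock genes (38.3% of all genes), 2 of 8 (41.2%), 5 of 8 (60.8%) and 4 of 8 (49.6%) in those comparisons. The median log2 fold change of the 8 genes was 0.21, 0.05, 0.17 and 0.12, against -0.02, -0.00, 0 and 0.01 over all genes. With a log2 limit of 1 added, none of the 8 genes remained, where 5.26%, 5.93%, 19.3% and 12.5% of all genes did. Each group enters 2 of the comparisons, so the comparisons are not independent of each other.

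**Figure D1:**
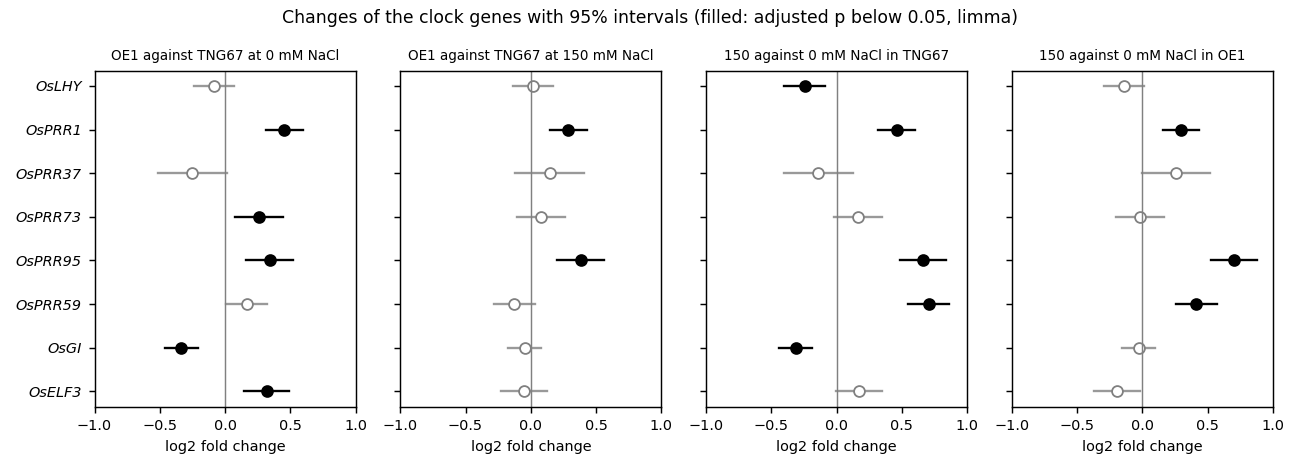
Log2 fold change of each of the 8 clock genes (points, with 95% confidence intervals from the limma fit) in the comparisons of OE1 with TNG67 and of 150 with 0 mM NaCl. OsPRR95 lies above 0 in all of them, at 0.34 to 0.70, while OsPRR37 and OsLHY stay within 0.26 of 0.

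OsPRR95, a pseudo-response regulator of the day phase, had the widest span of the 8. It measured 906, 990.1 and 816 in OE1 at 150 mM NaCl, and 715, 651 and 709 in TNG67 at 150 mM NaCl. Without salt it measured 585, 540.1 and 537 in OE1, and 435, 403 and 474 in TNG67. The 4 groups did not overlap at all: OE1 at 150 mM NaCl lay highest, then TNG67 at 150 mM, OE1 at 0 mM and TNG67 at 0 mM NaCl, and the highest mean was 2.07 times the lowest. Salt raised OsPRR95 by 0.66 (SE 0.09, limma adjusted p = 2.61e-06) in TNG67 and by 0.70 (SE 0.09, adjusted p = 2.42e-06) in OE1. It was higher in OE1 than in TNG67 by 0.34 at 0 mM NaCl (SE 0.09, adjusted p = 0.0073) and by 0.38 at 150 mM NaCl (SE 0.09, adjusted p = 0.00269). The line effect at 150 mM minus that at 0 mM NaCl was 0.04, with a 95% interval of -0.21 to 0.29 (adjusted p = 0.871).

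OsPRR1, the rice counterpart of the Arabidopsis evening repressor TOC1, followed the same order of groups. Its values were 985, 1060.4 and 967 in OE1 and 836, 839 and 794 in TNG67 at 150 mM NaCl, and 828, 823 and 802 in OE1 and 611, 563 and 619 in TNG67 at 0 mM NaCl. OE1 without salt overlapped with TNG67 under salt, and every other neighbouring pair in this order was separate. The gene was higher in OE1 than in TNG67 by 0.45 at 0 mM NaCl (SE 0.07, limma adjusted p = 9.85e-05), which is 36.8% in normalized count, and by 0.29 at 150 mM NaCl (SE 0.07, adjusted p = 0.00392), or 22.0%. Salt raised it by 0.46 in TNG67 (SE 0.07, adjusted p = 1.11e-05) and by 0.30 in OE1 (SE 0.07, adjusted p = 0.00164). Those line effects differed by -0.17, with a 95% interval of -0.37 to 0.03 (adjusted p = 0.279).

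OsPRR59, the closest relative of OsPRR95 among these genes, was led by salt. It had 1257, 1339.6 and 1382 in OE1 and 1435, 1536 and 1373 in TNG67 at 150 mM NaCl, against 997, 1037 and 952 in OE1 and 797, 916 and 956 in TNG67 at 0 mM NaCl. All 6 salt libraries lay above all 6 libraries without salt, and the lines overlapped at each level. Salt raised OsPRR59 by 0.71 in TNG67 (SE 0.07, limma adjusted p = 2.21e-07) and by 0.41 in OE1 (SE 0.07, adjusted p = 0.000198). The difference between OE1 and TNG67 was 0.17 at 0 mM NaCl (adjusted p = 0.122) and -0.13 at 150 mM NaCl (adjusted p = 0.235). Its line effect at 150 mM minus that at 0 mM NaCl was -0.29 (SE 0.11, adjusted p = 0.082), and this passed the threshold only when TNG67 replicate 3 at 0 mM NaCl was left out (-0.35, adjusted p = 0.0474).

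OsPRR73 and OsPRR37 are related pseudo-response regulators, and OsPRR37 is also a heading-date gene (DTH7, Hd2). OsPRR73 had 1510.0, 1598 and 1521 in OE1 and 1565, 1447 and 1375 in TNG67 at 150 mM NaCl, and 1756, 1339.6 and 1608 in OE1 and 1201, 1414 and 1299.9 in TNG67 at 0 mM NaCl. The OE1 libraries at 0 mM NaCl spread widely, with a coefficient of variation of 13.5%, and overlapped with TNG67. OsPRR73 was higher in OE1 by 0.26 at 0 mM NaCl (SE 0.09, limma adjusted p = 0.0409). That call was lost when OE1 replicate 1 (adjusted p = 0.207) or 3 (0.117) at 0 mM, TNG67 replicate 1 (0.174) or 3 (0.0855) at 0 mM, or OE1 replicate 1 (0.0505) or 3 (0.0526) at 150 mM NaCl was left out. OsPRR73 differed by 0.08 between the lines at 150 mM NaCl (adjusted p = 0.549), and salt shifted it by 0.17 in TNG67 (adjusted p = 0.119) and -0.01 in OE1 (adjusted p = 0.920).

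OsPRR37 had the fewest reads of the 8 genes, 226 to 393 in a library. Its values were 257, 367 and 315 in OE1 and 281, 281 and 277 in TNG67 at 150 mM NaCl, and 263, 228 and 289 in OE1 and 319, 275 and 335 in TNG67 at 0 mM NaCl. The groups overlapped in all comparisons and none passed the test. OE1 minus TNG67 was -0.25 at 0 mM NaCl (SE 0.13, limma adjusted p = 0.164) and 0.15 at 150 mM NaCl (SE 0.13, adjusted p = 0.429). Salt shifted OsPRR37 by -0.14 in TNG67 (95% interval -0.40 to 0.12, adjusted p = 0.366) and by 0.26 in OE1 (interval -0.00 to 0.52, adjusted p = 0.115). Without OE1 replicate 1 at 150 mM NaCl, the shift in OE1 was 0.39 and passed (adjusted p = 0.021). Its standard errors were the widest of the 8 genes. The line effect on OsPRR37 at 150 mM minus that at 0 mM NaCl was 0.40 (95% interval 0.03 to 0.77, limma adjusted p = 0.158). That difference was the largest in size of the 8 genes and did not pass.

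OsLHY, the morning MYB factor of the clock, was, with OsGI, one of the clock genes that fell with salt in TNG67. It measured 8443, 8301 and 8669 in OE1 and 8596, 8944 and 7619 in TNG67 at 150 mM NaCl. Without salt it measured 10483.5, 8856 and 8763 in OE1 and 10172, 10154 and 9453.5 in TNG67. In TNG67 the salt libraries all lay below those without salt, and OsLHY fell by 0.25 (SE 0.07, limma adjusted p = 0.00831). Its mean normalized count fell by 15.5%. That call was lost by a narrow margin when TNG67 replicate 3 at 150 mM NaCl, its lowest library, was left out (-0.18, adjusted p = 0.0504). In OE1 the salt libraries also lay below the others, but the shift of -0.14 did not pass (adjusted p = 0.144). The lines differed by -0.09 at 0 mM NaCl (adjusted p = 0.430) and by 0.02 at 150 mM NaCl (95% interval -0.14 to 0.17, adjusted p = 0.891). For OsLHY, the line effect at 150 mM minus that at 0 mM NaCl was 0.11 (interval -0.11 to 0.32, limma adjusted p = 0.563). A salt effect that differs between the lines was thus not shown for OsLHY.

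**Figure D2:**
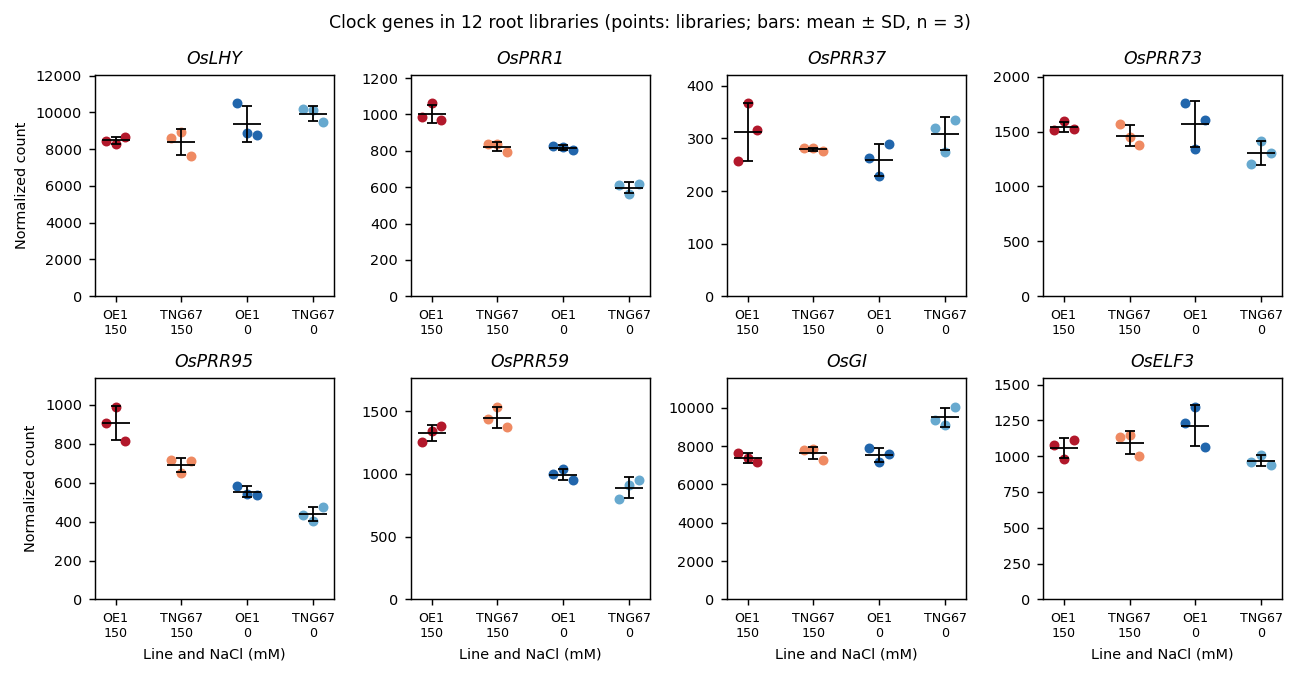
Normalized count of each of the 8 clock genes in the 12 libraries (points), with the group mean and SD (n = 3 each), for OE1 and TNG67 at 150 and 0 mM NaCl. OsPRR95 and OsPRR1 step down from OE1 with salt to TNG67 without salt, OsPRR59 separates by salt, and for OsGI the 3 libraries of TNG67 at 0 mM NaCl stand above all the others.

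OsGI, the rice GIGANTEA gene, had a pattern unlike that of the PRR genes. It measured 7661, 7379 and 7153 in OE1 and 7794, 7875 and 7277 in TNG67 at 150 mM NaCl, and 7893, 7158 and 7567 in OE1 at 0 mM NaCl, against 9371, 9101 and 10063 in TNG67 at 0 mM NaCl. Only untreated TNG67 stood apart, above every library of the other 3 groups. Without salt, OE1 had less OsGI than TNG67 (log2 fold change -0.34, SE 0.06, limma adjusted p = 0.00062), and salt lowered it in TNG67 (-0.31, SE 0.06, adjusted p = 0.000231). At 150 mM NaCl the line difference was -0.05 (95% interval -0.17 to 0.08, adjusted p = 0.607), and salt shifted OsGI in OE1 by -0.03 (interval -0.15 to 0.10, adjusted p = 0.771).

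The test of the difference itself, the line effect at 150 mM minus that at 0 mM NaCl, passed for OsGI alone among the 8 genes, at 0.29 (SE 0.09, limma adjusted p = 0.0367), beside 11.4% of all genes (5.2% higher, 6.17% lower). This call was close to the threshold. It was lost when replicate 1 (adjusted p = 0.0879) or 2 (0.0619) of OE1 at 150 mM, replicate 1 (0.0578) or 3 (0.0613) of TNG67 at 150 mM, replicate 2 (0.085) or 3 (0.0599) of OE1 at 0 mM, or replicate 1 (0.0674) or 3 (0.0897) of TNG67 at 0 mM NaCl was left out, while the value itself stayed between 0.25 and 0.30 in these fits.

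OsELF3 (Hd17), known for its role in the evening complex, had 1080.3, 981 and 1109.6 in OE1 and 1133, 1147 and 1005 in TNG67 at 150 mM NaCl. Without salt it had 1231, 1346 and 1064 in OE1, against 961, 1008 and 938 in TNG67. The lines were separate at 0 mM NaCl and overlapped at 150 mM NaCl. It was higher in OE1 by 0.32 at 0 mM NaCl (SE 0.08, limma adjusted p = 0.0101), and without OE1 replicate 2 at 0 mM NaCl this was 0.24 and did not pass (adjusted p = 0.0601). At 150 mM NaCl the difference was -0.05 (95% interval -0.22 to 0.12, adjusted p = 0.704).

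Salt shifted OsELF3 by 0.17 in TNG67 (adjusted p = 0.0866) and by -0.19 in OE1 (adjusted p = 0.0737), in opposite directions and neither past the threshold in limma. The shift in TNG67 passed without TNG67 replicate 3 at 150 mM NaCl (0.23, adjusted p = 0.0333), and that in OE1 passed without OE1 replicate 3 at 0 mM NaCl (-0.29, adjusted p = 0.0118) and over all libraries in edgeR (-0.22, adjusted p = 0.0368) and limma-voom (-0.22, adjusted p = 0.0443). The line effect at 150 mM minus that at 0 mM NaCl was -0.37 (SE 0.12, adjusted p = 0.0505), at the threshold. Over all libraries it passed in edgeR (adjusted p = 0.0364), DESeq2 (0.0455), limma-voom (0.0454) and limma with a mean count of at least 20 (0.0485), and not in edgeR with library-size scaling (0.0771), with a pseudocount of 0.1 (0.0534) or with the replicate block (0.0603). It also passed without TNG67 replicate 3 at 150 mM NaCl (-0.43, adjusted p = 0.023) and without OE1 replicate 3 at 0 mM NaCl (-0.46, adjusted p = 0.0143).

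Ratios between 2 clock genes within a library do not depend on the scaling of that library. Their absolute level reflects gene length as well, so only differences between groups are read, as a description with no test. The log2 ratio of OsPRR1 to OsLHY averaged -3.08 ± 0.10 in OE1 and -3.35 ± 0.08 in TNG67 at 150 mM NaCl, and -3.51 ± 0.13 in OE1 and -4.05 ± 0.12 in TNG67 at 0 mM NaCl (SD, n = 3 each). For OsPRR95 to OsLHY it averaged -3.23 ± 0.17 and -3.60 ± 0.18 in OE1 and TNG67 at 150 mM NaCl, and -4.08 ± 0.08 and -4.51 ± 0.17 in OE1 and TNG67 at 0 mM NaCl. The ratio of OsPRR95 to OsGI averaged -3.04 ± 0.12 in OE1 and -3.47 ± 0.12 in TNG67 at 150 mM NaCl, and -3.77 ± 0.05 in OE1 and -4.44 ± 0.05 in TNG67 at 0 mM NaCl. All of these ratios had the same order of groups, and OE1 at 150 mM NaCl exceeded TNG67 at 0 mM NaCl by 0.98, 1.27 and 1.41 on the log2 scale. Only these pairs were taken, with OsPRR1 or OsPRR95, lowest in TNG67 at 0 mM NaCl, over OsLHY or OsGI, highest there. The shared order thus largely restates the levels given above and is no further support. OE1 at 150 mM and TNG67 at 0 mM NaCl differ in both line and salt.

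**Figure D3:**
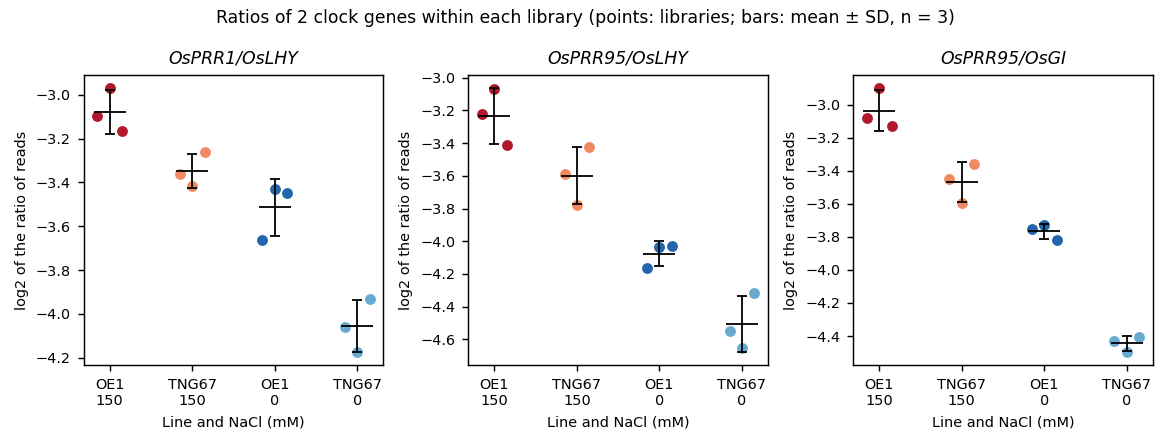
Log2 ratio of normalized counts between pairs of clock genes within each library (points), with the group mean and SD (n = 3 each). Each ratio is highest in OE1 at 150 mM NaCl and lowest in TNG67 at 0 mM NaCl, by 0.98 (OsPRR1/OsLHY), 1.27 (OsPRR95/OsLHY) and 1.41 (OsPRR95/OsGI). This order largely follows from the levels of the single genes.

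Other genes of the pathway were counted by lists. Of 7 clock partners (evening-complex, GARP, F-box and related genes), 2 were higher in OE1 without salt and none passed between the lines at 150 mM NaCl, while salt raised 2 in TNG67 and raised 1 and lowered 1 in OE1. Over all genes, 22% and 25.8% passed between the lines at 0 and 150 mM NaCl. With salt, 54.5% and 38.8% of all genes passed in TNG67 and OE1. The share of clock partners called was below these except between the lines at 0 mM NaCl. The annotation gives no symbol for the clock partners in the table used here, so they are named by identifier. Os11g0547000, described in the files as an autonomous floral activator, had 116, 121 and 103 in OE1 and 71.6, 76.2 and 101 in TNG67 at 150 mM NaCl, and 57.4, 48.5 and 64.7 in OE1 and 31.3, 33.9 and 22.5 in TNG67 at 0 mM NaCl. Salt raised Os11g0547000 by 1.48 in TNG67 (limma adjusted p = 5.31e-06) and by 0.99 in OE1 (adjusted p = 0.000659), and it was higher in OE1 at 0 mM NaCl by 0.95 (adjusted p = 0.00243). These values rest on 21 to 128 reads.

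Os01g0971800, described as a GARP transcription factor of the clock, had 47.0, 39.2 and 35.3 in OE1 and 61.4, 44.9 and 61.1 in TNG67 at 150 mM NaCl, and 40.8, 38.4 and 33.4 in OE1 and 13.4, 24.4 and 32.2 in TNG67 at 0 mM NaCl. The line difference at 0 mM NaCl was 0.74 and did not pass (limma adjusted p = 0.0609). Os01g0971800 rose by 1.29 with salt in TNG67 (limma adjusted p = 0.000573) and shifted by 0.10 in OE1 (adjusted p = 0.811), and the difference between those effects was -1.19 (adjusted p = 0.0548). Without TNG67 replicate 3 at 0 mM NaCl, that difference (-1.45, adjusted p = 0.0189) and the line difference at 0 mM NaCl (1.00, adjusted p = 0.0173) both passed, whereas without TNG67 replicate 1 at 0 mM NaCl that line difference was 0.40 (adjusted p = 0.305). A further 4 genes whose descriptions name the clock, listed after the tables were seen, gave 0 and 1 calls between the lines at 0 and 150 mM NaCl, and salt lowered 3 of them in TNG67 and 2 in OE1, beside 22%, 25.8%, 54.5% and 38.8% of all genes called in those comparisons.

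Light receptors feed day and night into the clock. Of 7 photoreceptor genes (phytochromes, cryptochromes and related receptors), none passed between the lines at 0 mM NaCl, 1 was higher in OE1 at 150 mM NaCl, and salt lowered 3 in each line and raised 1 in TNG67. The share of all genes called was 22% and 25.8% between the lines, and 54.5% (27.2% lower) and 38.8% (19.2% lower) with salt in TNG67 and OE1, so the salt counts of 4 and 3 of 7 lie near the background. Os04g0452100, described as a cryptochrome 1 blue light receptor, had 179, 133 and 156 in OE1 and 97.2, 116 and 111 in TNG67 at 150 mM NaCl, against 499, 511 and 509 in OE1 and 435, 407 and 391 in TNG67 at 0 mM NaCl. Salt lowered it in TNG67 (-1.92, limma adjusted p = 1.25e-10) and in OE1 (-1.71, adjusted p = 1.32e-09), and it was higher in OE1 at 150 mM NaCl by 0.52 (adjusted p = 0.00274). At 0 mM NaCl the line difference of 0.30 was short of the threshold (limma adjusted p = 0.0704), but it passed in 5 of 8 other fits that keep every library of both groups: edgeR (adjusted p = 0.0319), edgeR with library-size scaling (0.0308), DESeq2 (0.0365), limma-voom (0.0145) and limma on the 6 libraries concerned (0.0203). It also passed without OE1 replicate 2 at 150 mM NaCl (0.0485). OsPHYA, the phytochrome A gene, fell in both lines with salt, by 0.47 in TNG67 (adjusted p = 4.57e-06) and by 0.51 in OE1 (adjusted p = 3.23e-06). The summed shoot photosynthesis markers given above were also lower at 150 mM NaCl in both lines, and their part in these results was not tested.

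Of 7 flowering genes downstream of the clock, Hd1, Ehd1, Ghd7 and Hd3a were listed at neither NaCl level and could not be tested. The other 3 were listed at both NaCl levels and tested. None of those 3 passed between the lines at 0 mM NaCl, 1 was higher in OE1 at 150 mM NaCl, and salt lowered Os02g0610500 in TNG67 and another of the 3, Os03g0169600, in OE1 (-0.56, limma adjusted p = 0.0215), beside 22%, 25.8%, 54.5% and 38.8% of all genes called. The gene higher in OE1 was Os02g0610500, described as a CONSTANS-like B-box protein, with 118, 179 and 118 in OE1 and 74.2, 80.1 and 103 in TNG67 at 150 mM NaCl (log2 fold change 0.67, limma adjusted p = 0.0158), and 174, 113 and 117 in OE1 and 163, 139 and 158 in TNG67 at 0 mM NaCl. The higher level at 150 mM NaCl was lost without OE1 replicate 2 (adjusted p = 0.0994), TNG67 replicate 1 (0.0737) or TNG67 replicate 2 (0.0524) at that NaCl level. In TNG67, salt lowered Os02g0610500 (-0.84, adjusted p = 0.00118). Os03g0169600 shifted by -0.40 in TNG67, with separate libraries, and did not pass (limma adjusted p = 0.0769). In OE1, where Os03g0169600 passed, its libraries overlapped between the NaCl levels. Its line effect at 150 mM minus that at 0 mM NaCl was -0.16 (adjusted p = 0.741).

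**Figure D4:**
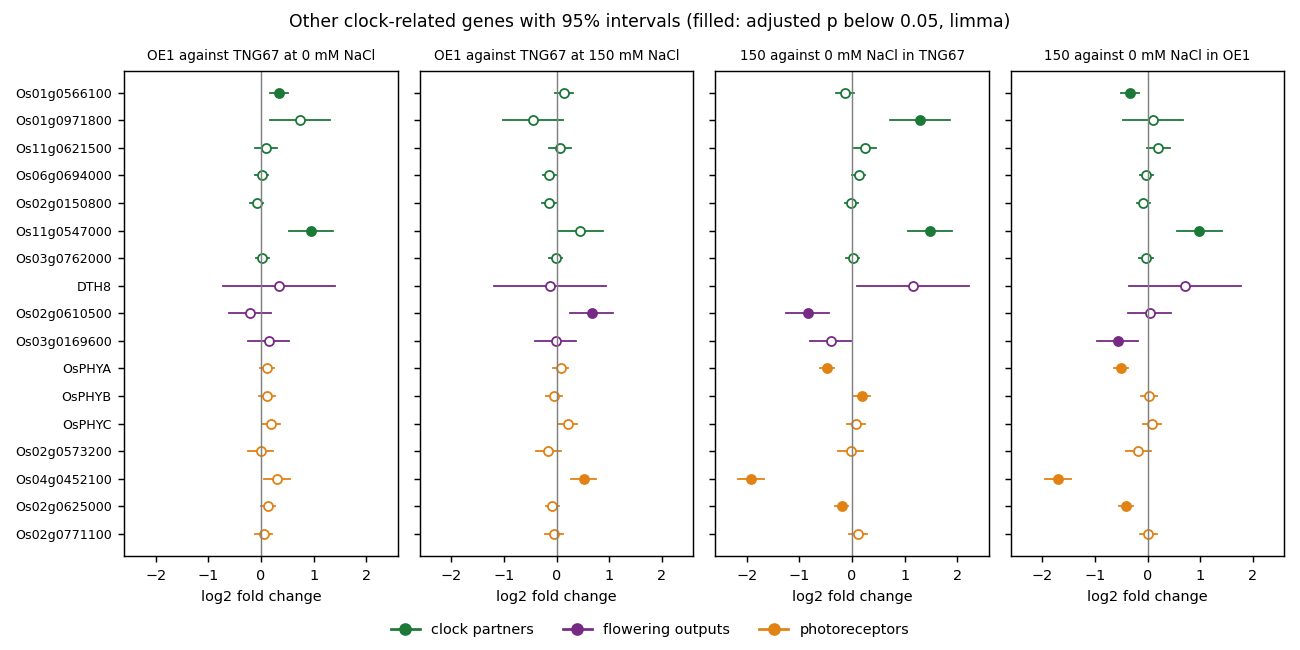
Log2 fold changes of the clock partner, flowering and photoreceptor genes in the comparisons of OE1 with TNG67 and of 150 with 0 mM NaCl. Most lie near 0, and the gene farthest from it is Os04g0452100, at -1.92 in TNG67 and -1.71 in OE1 with salt.

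OsPRR95 was the only clock gene whose 4 group means spanned more than 1 on the log2 scale (1.04), and the genes closest to it in pattern were sought. Likeness was the root mean square difference of log2 levels over the 12 libraries, each gene centred on its own mean, among 22188 other genes with a mean normalized count of at least 20. The nearest were Os01g0223900, with a serine/threonine kinase-related domain (0.11), Os01g0899200, similar to a dehydration-responsive family protein (0.12), and Os12g0147800, similar to a phytosulfokine precursor (0.12). Os01g0223900 had 394, 386 and 340.2 in OE1 and 362, 296 and 324 in TNG67 at 150 mM NaCl, and 292, 246 and 244 in OE1 and 201, 211 and 219.9 in TNG67 at 0 mM NaCl. Among the other clock genes, OsPRR1 was nearest (0.17, rank 59), then OsPRR59 (0.23, rank 389), and OsGI was farthest (0.52, rank 13170). The search is a description over 12 libraries that share 4 groups.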

How the data were processed

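Root RNA-seq libraries were compared across 4 groups of 3. Per the submitters' processing notes, Trimmomatic 0.38, HISAT2 2.1.0 and the IRGSP-1.0 genome were used; the counting tool, strand setting, filter and treatment of reads shared by related genes are not given in the sources used here. The authors deposited normalized counts for each library separately (a signal: reads divided by a library factor). The gene list was the same for all libraries of a NaCl level, so they are treated here as 2 tables, 1 per NaCl level. Dividing by the value of 1 read gave whole reads for 100% of values within 0.01 reads; in 3 libraries 1 read was worth about 1, so the recovery rests on that alone. Median-ratio factors computed for the 12 libraries together were within 0.0916% of these, so both tables were placed on 1 scale.

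The log2(normalized count + 1) values of 24922 genes in both tables were fitted with limma 3.58.1 (R 4.3.3, trend and robust, 4 groups) and p-values were adjusted by Benjamini-Hochberg within each comparison. Alternatives were edgeR 4.0.16 and DESeq2 1.42.0 on recovered reads, limma-voom, a filter, another pseudocount, a replicate block, fits of 6 libraries and each library left out. The script was tested on simulated data. Named beyond the 8 genes were listed pathway genes with adjusted p below 0.05 and log2 fold change beyond 1 in any comparison, the 3 genes nearest in pattern, and a few singled out after their values were seen (OsPHYA, Os02g0610500, Os03g0169600, RCc3). The 8 genes and the lists were chosen with earlier results of these data known. The labels call the tissue roots, while the series' design text says terrestrial parts. The paper states that RNA came from belowground parts of the seedlings, which goes with the labels. Root markers were present in every library. Summed shoot photosynthesis markers were also detected, from 101 to 157 in TNG67 at 150 mM NaCl up to 4882 to 6874 in TNG67 at 0 mM NaCl. No sequence of these genes was used here.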

Additional observations from a re-analysis of the deposited data

Results flagged for a closer look

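The effect of the line differed between NaCl levels for 1 of 8 clock genes and 1 of 3 flowering genes tested. It did so for 0 of 7 clock partners and 0 of 7 photoreceptor genes, beside 11.4% of all genes. These 2 calls are thus no excess over the background. For OsGI, the log2 difference between OE1 and TNG67 at 150 mM NaCl minus that at 0 mM NaCl was 0.29 (limma, adjusted p = 0.0367). That call was lost in 8 of the 12 fits that left out 1 library. For Os02g0610500, described as a CONSTANS-like B-box protein, the same difference was 0.88 (SE 0.27, limma adjusted p = 0.045). This second call was lost when any of 8 of the 12 libraries was left out: OE1 replicate 2 at 150 mM (adjusted p = 0.12), TNG67 replicate 1 (0.108) or 2 (0.0907) at 150 mM, OE1 replicate 2 (0.0985) or 3 (0.0935) at 0 mM, and TNG67 replicate 1 (0.104), 2 (0.0569) or 3 (0.0749) at 0 mM NaCl.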

How the results depend on the processing

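The calls of OsPRR1 and OsPRR95 in all 4 comparisons, of OsPRR59 with salt in both lines, and of OsGI at 0 mM NaCl and with salt in TNG67 held in every alternative fit. With a log2 limit of 1 added, the number of clock genes called was 0 in each of those comparisons. For the difference of line effects, 2 clock genes passed in DESeq2, in limma-voom and with a mean count of at least 20, and 0 with the replicate block. Over all genes, 3078 of 23955 passed in DESeq2 and 2638 of 24922 in limma-voom. With the filter 2860 of 22189 did, and with the block 2311 of 24922. With edgeR, OsGI did not pass for that difference (adjusted p = 0.0527). OsELF3 did in edgeR, DESeq2, limma-voom and with the filter, at adjusted p of 0.0364 to 0.0485. Leaving out 1 library gave 4 to 5 calls for OE1 against TNG67 at 0 mM NaCl, 2 at 150 mM, 5 for salt in TNG67, 3 to 4 in OE1, and 0 to 1 for the difference of line effects. The main fit called 22%, 25.8%, 54.5%, 38.8% and 11.4% of all genes in that order. Same-numbered libraries did not deviate together (correlations -0.16 to 0.05), so no shared effect of the replicate number was seen. This does not settle whether the numbers pair the samples. With the replicate block, OsPRR73 at 0 mM NaCl (limma adjusted p = 0.0635) and OsGI in the difference of line effects (0.0611) were lost. OsPRR73 was also lost in the fit of 6 libraries (0.0684). Small values near 0 changed sign. With library-size scaling these were OsGI (0.035) and OsELF3 (0.033) at 150 mM NaCl and OsPRR73 with salt in OE1 (0.0020). With 1 library left out, OsLHY ranged over -0.050 to 0.066 and OsELF3 over -0.111 to 0.0026 at 150 mM NaCl. With salt in OE1, the ranges were -0.123 to 0.071 for OsPRR73, -0.064 to 0.0069 for OsGI, -0.0079 to 0.193 for Os01g0971800 and -0.162 to 0.235 for Os02g0610500. OsPRR95 ranged over -0.027 to 0.112 in the difference of line effects. The cause was not tested. OsPRR37 had the fewest reads of the clock genes (226 to 393), and which limit matters most for it was not tested.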
